A study of Mus musculus with 6 samples.

Results

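The genes described here are the natriuretic peptide genes Nppa and Nppb, their receptor and processing genes Npr1, Npr3 and Corin, and the atrial muscle genes Myl4, Myl7 and Sln. They were taken by symbol, 8 genes of the 56923 in the deposited count table, by a rule that used no measured value, though with earlier results of these data known. The question put to them was whether Nppa went with the atrial tissue genes or with Nppb from mouse to mouse, and whether any of them differed between genotypes.

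Hearts of 3 wild-type mice (WT) and 3 mice labelled Mut were profiled at 12 weeks of age, with 1 RNA-seq library for each labelled replicate, taken here as 1 mouse; if replicates were not separate animals, the p-values measure technical spread. Per the study's methods, the mutants were heterozygous for a knock-in allele of Lztr1 that changes an amino acid of the encoded ubiquitin ligase adaptor (R409C, Lztr1R409C/+), the line had been backcrossed to C57BL/6J, the animals were males without drug treatment, and the tissue was the left ventricle after perfusion with cold buffer. The line models Noonan syndrome, a developmental disorder of RAS signalling in which the heart muscle can thicken. The allele sits in every cell and is not restricted to heart muscle, and in whole tissue fewer cells of a type and less RNA per cell cannot be told apart.

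Libraries held 66130887 to 72641124 gene counts, so 3 counts equalled 0.0317 to 0.0541 CPM (gene counts divided by the library size, here scaled by the trimmed mean of M values, TMM). The mitochondrial genome supplied 13.8% of the counts in WT3, 45.4% in Mut1 and 29.7% to 37.3% in the other 4 mice. Lztr1 itself was at 23.5 ± 1.11 CPM in WT and 25.7 ± 2.03 in Mut mice (SD, n = 3 each), and expression cannot check a label that rests on an amino acid change. Ventricular identity was plain: Myl2, the ventricular regulatory light chain, lay between 1300 and 3622 CPM in all 6 mice, whereas Myl7, its atrial counterpart, was at 0.262 CPM or below. Over the whole table, 17212 genes were tested with edgeR (quasi-likelihood, p-values adjusted after Benjamini and Hochberg), and 7 were called at 0.05 (6 higher and 1 lower in Mut), which is 0.0407% of the genes tested. An unadjusted p under 0.05 was found in 8.63% of them, and the DESeq2 Wald test called 158 of the 14874 genes to which it gave an adjusted p (1.06%). None of the 8 members was called, 0 of the 6 that were tested had an unadjusted p under 0.05 in edgeR or in DESeq2, and in each of the 6 that could be tested the WT and Mut values overlapped, whereas they did not overlap in 15.5% of all tested genes.

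Natriuretic peptides are hormones that the heart muscle secretes when its walls are stretched. Nppa encodes the precursor of atrial natriuretic peptide, stored in large amounts in atrial myocytes, and Nppb that of B-type natriuretic peptide. In the ventricle both genes are active before birth, are low in the healthy adult and return under load, which makes them standard readouts of hypertrophy. CORIN, a membrane protease of cardiomyocytes, cuts pro-atrial natriuretic peptide into its active form. NPR1 is the guanylyl cyclase receptor that turns either peptide into a cyclic GMP signal, while NPR3 lacks the cyclase and clears the peptides. Myl4 and Myl7 encode the atrial essential and regulatory myosin light chains, and Sln encodes sarcolipin, an inhibitor of the calcium pump SERCA that in the mouse heart is an atrial protein. Tissue taken along from the atrium would therefore carry Myl7 and Sln with Nppa.

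Nppb and Nppa are neighbours on chromosome 4, both on the plus strand. In GENCODE M39 on GRCm39, Nppb spans chr4:148069859-148071662 and Nppa chr4:148085091-148086583, with 13428 bases between them. The others lie elsewhere: Npr1 at chr3:90356458-90373748, Npr3 at chr15:11839982-11907373, Corin at chr5:72457290-72661924 and Myl7 at chr11:5845449-5848792, all on the minus strand, and Myl4 at chr11:104440903-104486603 and Sln at chr9:53742537-53761846 on the plus strand. RefSeq start windows (the 250 bases before the annotated start) matched 7 of the 8 genes, all but Sln, and were located on GRCm39 by exact match. The upstream sequences of the peptide pair and of Myl7 are shown because the comparison turns on whether Nppa behaved like its neighbour or like an atrial gene. Each runs 5′ to 3′ on the gene's strand, and capitals mark the motifs named after the sequences.
Nppa, chr4:148084929-148085090, plus strand, ending at the first base before the GENCODE exon: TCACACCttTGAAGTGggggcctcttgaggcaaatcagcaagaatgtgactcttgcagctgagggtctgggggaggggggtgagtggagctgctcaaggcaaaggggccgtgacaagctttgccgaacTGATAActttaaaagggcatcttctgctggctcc
Nppb, chr4:148070107-148070267, plus strand, inside the span of the GENCODE gene and with its last 23 bases in an annotated exon: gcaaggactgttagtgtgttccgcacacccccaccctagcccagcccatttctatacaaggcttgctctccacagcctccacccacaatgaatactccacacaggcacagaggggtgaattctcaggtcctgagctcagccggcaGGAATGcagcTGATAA
Myl7, chr11:5848793-5849032, minus strand, ending at the first base before the GENCODE exon: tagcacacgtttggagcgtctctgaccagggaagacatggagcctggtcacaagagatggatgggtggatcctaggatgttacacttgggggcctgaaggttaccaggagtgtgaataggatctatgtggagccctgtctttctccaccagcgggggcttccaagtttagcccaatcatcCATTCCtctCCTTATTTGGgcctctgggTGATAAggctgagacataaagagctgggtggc

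The Nppa window opens with TCACACC, the core of a T-box element, at position -250 from the RefSeq start, followed by TGAAGTG, a match to the NKX2-5 element TNAAGTG, at -241. The GATA-type match TGATAA occurs in the windows of all 3 genes, at -122 in Nppa, at -95 in Nppb and at -42 in Myl7. An M-CAT element, the site of TEAD factors, was found as CATTCC in Myl7 at -70 and as its reverse complement GGAATG in Nppb at -105, and only Myl7 among the 7 windows held a CArG box, the site of serum response factor, at -61. Both strands were searched. Among 32544 RefSeq windows of the same length, TCACACC occurred in 3.33%, TNAAGTG in 10.01%, TGATAA in 7.80%, CATTCC in 12.6% and the CArG box in 1.48%. These matches are letters in a window and not measured binding.

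The mean of Nppa was 1.44 times as high in the mutants, but the genotypes overlapped and no test called it. Its level was 37.7, 49.9 and 76.0 CPM in WT1, WT2 and WT3 and 52.9, 106.5 and 76.3 CPM in Mut1, Mut2 and Mut3. Mut2 was the highest of the 6 mice, and Mut1 lay between WT2 and WT3. Means were 54.5 ± 19.6 CPM in WT and 78.6 ± 26.9 in Mut mice (SD, n = 3 each). The log2 fold change was 0.53 (SE 0.28, 95% interval -0.097 to 1.15), with an edgeR adjusted p of 0.643. The exact two-sided permutation test over mice gave p = 0.2, where 3 against 3 cannot go below 0.1. Leaving out Mut2 brought the log2 fold change down to 0.24, and leaving out WT3 raised it to 0.84, with edgeR adjusted p-values of 0.876 and 0.469.

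The mean of Nppb was not higher in the mutants. It was at 89.5, 131.4 and 251.9 CPM in WT1, WT2 and WT3 and at 161.6, 98.0 and 148.6 CPM in Mut1, Mut2 and Mut3. WT3 had the highest level of all, and the 3 mutants lay inside the range of the wild types. Means were 157.6 ± 84.3 CPM in WT and 136.1 ± 33.6 in Mut mice (SD, n = 3 each), a log2 fold change of -0.21 (SE 0.34, 95% interval -0.97 to 0.54, edgeR adjusted p = 0.901). Without WT3 the fold change turned to 0.30 (edgeR adjusted p = 0.806). WT3 was also the library with the lowest mitochondrial share, and the part of that share in the Nppb level was not tested.

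The peptide genes varied more between mice of 1 genotype than most genes of the ventricle. Their pooled within-genotype SD of log2 CPM was 0.51 for Nppa and 0.60 for Nppb, against a median of 0.21 over the 7748 tested genes with a mean of at least 10 CPM, and 3.15% and 1.69% of those genes had a larger SD. Npr3 was as variable, at 0.61, whereas Corin, at 0.30, and Npr1, at 0.23, were nearer the median gene. The 95% intervals of the log2 fold change reached 1.15 for Nppa and 0.54 for Nppb, so these data do not exclude a rise within these bounds.

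**Figure D1:**
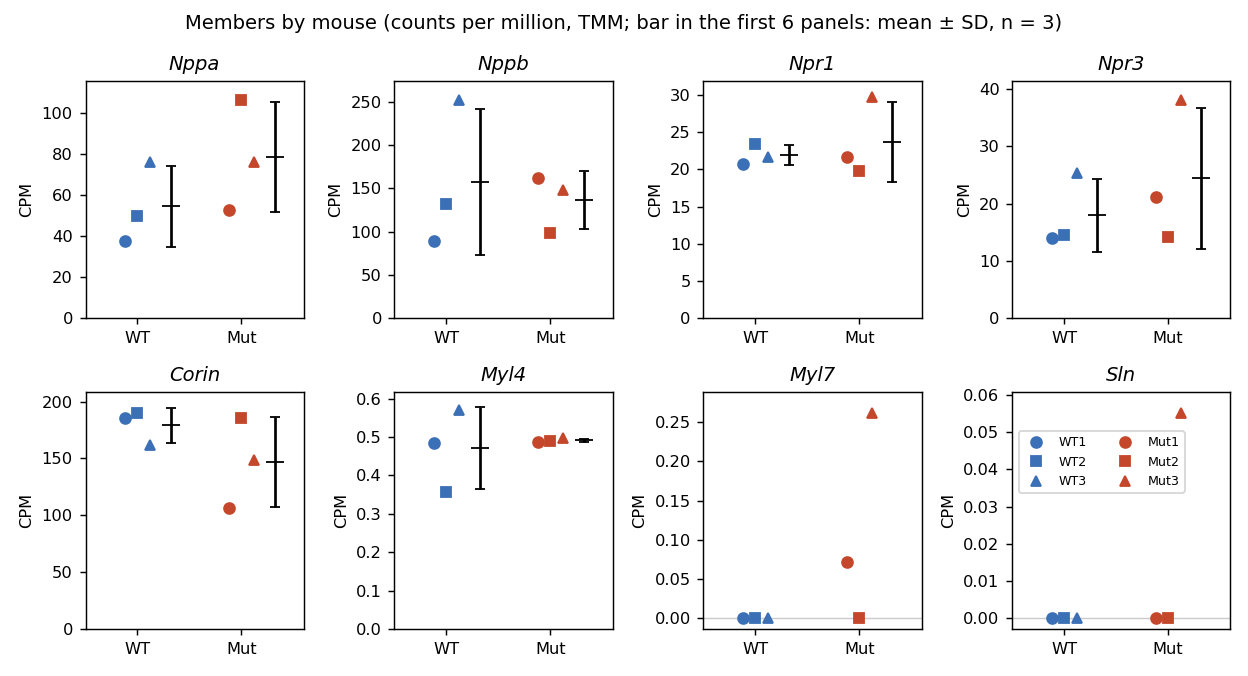
CPM (TMM) of each gene in every mouse, WT in blue and Mut in red, with the symbol giving the mouse and the black bar the mean ± SD (n = 3) in the first 6 panels. Nppa is highest in Mut2 at 106.5 CPM and Nppb in WT3 at 251.9 CPM, and Myl7 and Sln lie at or near 0 on far smaller axes.

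Corin, the convertase, was at 185.4, 190.3 and 161.7 CPM in WT1, WT2 and WT3 and at 106.7, 185.9 and 148.7 CPM in Mut1, Mut2 and Mut3. Mut2 matched the wild types, while Mut1 and Mut3 were below all of them. The log2 fold change was -0.28 (SE 0.20, 95% interval -0.72 to 0.15, edgeR adjusted p = 0.737). It was -0.49 without Mut2 and -0.11 without Mut1, the mouse with the largest mitochondrial share and the lowest summed level of the 6 cardiomyocyte markers (20196 CPM, against 28781 to 35418 in the other 5 mice). The part of either in the Corin level was not tested.

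Npr1, the signalling receptor, was the steadiest of the well-expressed genes. It was at 20.7, 23.4 and 21.7 CPM in WT1, WT2 and WT3 and at 21.6, 19.7 and 29.8 CPM in Mut1, Mut2 and Mut3, so that only Mut3 left the wild-type range upwards. The log2 fold change was 0.11 (SE 0.18, edgeR adjusted p = 0.901), and -0.086 without Mut3.

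Npr3, the clearance receptor, was at 14.0, 14.5 and 25.3 CPM in WT1, WT2 and WT3 and at 21.1, 14.1 and 38.1 CPM in Mut1, Mut2 and Mut3. Mut3 and WT3 were the highest mice and Mut2 was level with WT1 and WT2. The log2 fold change was 0.44 (SE 0.35, 95% interval -0.34 to 1.23, edgeR adjusted p = 0.774), and -0.030 without Mut3. It was 0.77 without WT3 and 0.71 without Mut2 (edgeR adjusted p-values 0.634 and 0.603). NPR3 is known in the heart from the endocardium, the lining of the chambers. Of 7 endocardial markers 6 were tested, all with a positive log2 fold change (5 of 6 when scaled by library size alone) and with 0 called by edgeR (3 at an unadjusted p under 0.05, against 8.63% of all tested genes) and 1 by DESeq2 (against 1.06%). Their summed level was 26.8 to 30.7 CPM in WT and 30.8 to 51.8 in Mut mice, highest in Mut3. In WT3, where Npr3 was also high, the sum was 29.5 CPM, below WT1 at 30.7. Hapln1 was at 0 in every mouse except WT2. Tmem108 had the smallest unadjusted p of the list (log2 fold change 1.55, edgeR adjusted p = 0.215, DESeq2 adjusted p = 0.0049), followed by Smoc1 (1.03, edgeR adjusted p = 0.470). The part of endocardial tissue in the Npr3 level was not tested.

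**Figure D2:**
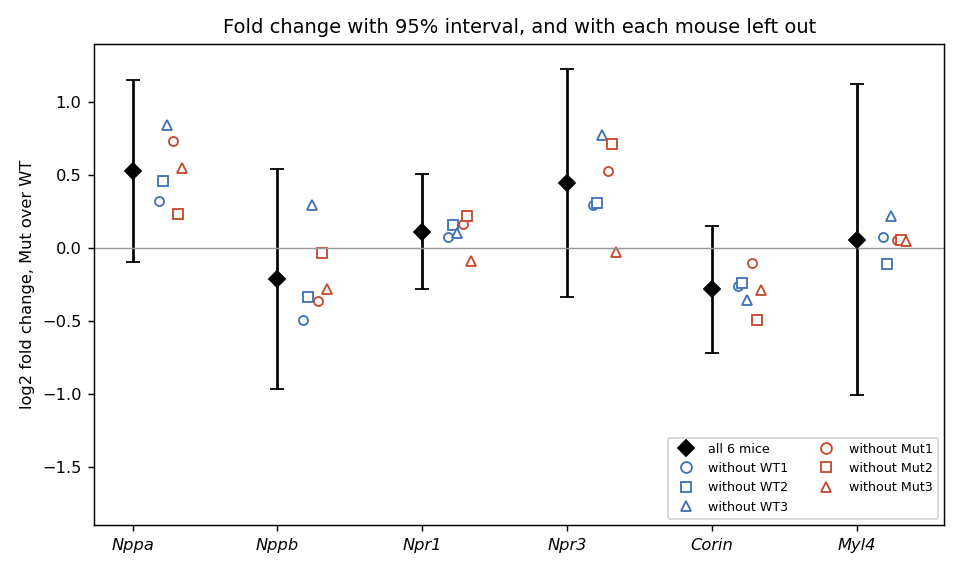
Log2 fold change, Mut over WT, of the 6 tested genes with its 95% interval (black), and the value when each mouse is left out (open symbols, blue for a WT and red for a Mut mouse). All 6 intervals include 0, and the sign turns for Nppb without WT3, for Npr1 and Npr3 without Mut3 and for Myl4 without WT2.

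The atrial muscle genes were close to the limit of detection. Myl4 had 32, 23 and 54 counts in WT1, WT2 and WT3 and 27, 35 and 36 in Mut1, Mut2 and Mut3, which is 0.357 to 0.570 CPM in WT and 0.487 to 0.497 CPM in Mut mice. The mutants lay within the wild-type range, and the log2 fold change was 0.058 (SE 0.49, 95% interval -1.01 to 1.13, edgeR adjusted p = 0.983). The gene shares 258 exonic bases with Cdc27 on the opposite strand, which had 1241 to 2503 counts per mouse. The strand setting of the counting is not given in the sources used here, so without strand the reads of the shared stretch cannot be told apart.

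Myl7 had 0 counts in all 3 wild types and 4, 0 and 19 counts in Mut1, Mut2 and Mut3, or 0.0722, 0 and 0.262 CPM. Sln had 4 counts in Mut3, or 0.0552 CPM, and 0 in the other 5 mice. A count of 0 allows a level of up to 0.0317 to 0.0541 CPM, depending on the library, and such floors cover counting error only. Neither gene passed the filter on low counts, so neither was tested, and 6 of the 8 genes were. The exact permutation test over mice gave p = 0.4 for Myl7 and p = 1 for Sln, and in both genes the genotypes overlapped at 0.

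Of the 23 Myl7 counts in the series 19 came from Mut3, the only library with Sln counts. Mut3 also had the highest summed level of the 5 epicardial markers, 9.81 CPM against 4.77 to 5.89 in WT, 5.47 in Mut1 and 6.71 in Mut2. Of these, 5 were tested with 0 called by edgeR (3 at an unadjusted p under 0.05, against 8.63% of all tested genes) and 1, Upk3b, by DESeq2 (adjusted p = 0.0151, against 1.06% of genes called), and 3 had a positive and 2 a negative log2 fold change, the latter being Wt1 (-0.18) and Krt19 (-0.041). Upk3b and Lrrn4, markers of the outer lining, had the smallest unadjusted p (log2 fold changes 2.15 and 2.37, edgeR adjusted p-values 0.251 and 0.326), and Krt19 was at 0 in Mut1. Among the atrial genes that were too low to test, Mybphl was at 0.0690 CPM in Mut3, at 0 in Mut1 and Mut2 and at 0.084 to 0.311 in WT mice. Bmp10 was at 0 in Mut3, with 0.0422 CPM in WT3 and 0.0559 in Mut2 and 0 in the other mice. The 8 skeletal muscle markers summed to 0.217 to 0.878 CPM in WT and 0.812 to 1.75 in Mut mice, and the 4 lung markers to 0.0559 CPM at most, with Sftpc, Sftpa1 and Scgb1a1 at 0 in every mouse. The part of the tissue taken in the Myl7 and Sln counts was not tested.

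Per length of exon, the members fell into 3 ranges. Averaged over the 6 mice, Nppb was at 129.6 CPM per kb, Nppa at 65.3 and Corin at 22.4, Npr1 at 3.16 and Npr3 at 1.71, and Myl4 at 0.0754, Myl7 at 0.0223 and Sln at 0.00598. Lengths are those of all annotated exons of a gene together, which understates the level of a gene with long unused exons. The order of Nppa over Corin, Corin over Npr1, and Npr3 over Myl4 held in 6 of 6 mice with ranges that did not overlap. Npr1 was above Npr3 in each of the 6 mice although the ranges overlapped. Nppb was above Nppa in 5 of 6 mice, and Myl4 above Myl7 in 5 of 6, Mut3 being the exception. Myl7 and Sln could not be ordered at this depth.

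**Figure D3:**
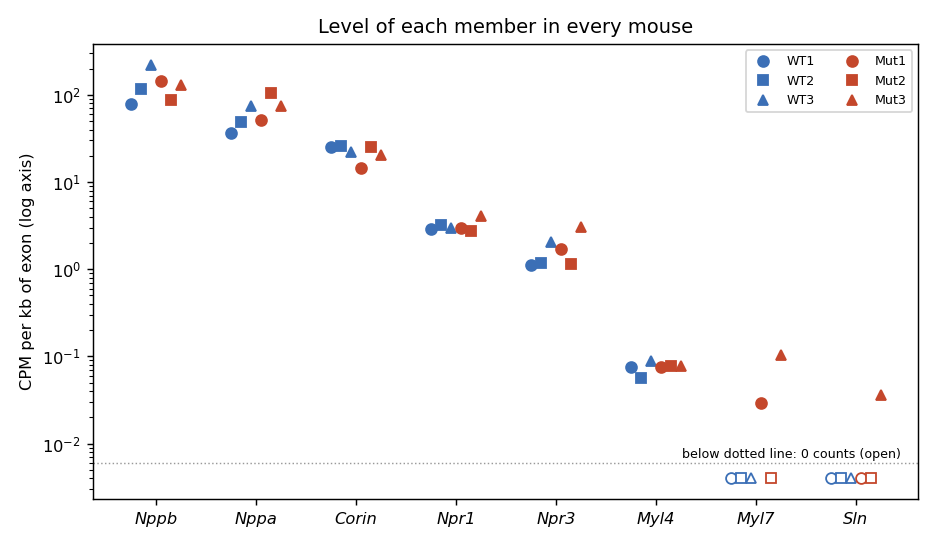
Level of each gene in every mouse in CPM per kb of exon, on a log axis, in order of the mean over the 6 mice; open symbols below the dotted line are mice with 0 counts. Nppb, Nppa and Corin lie between 14.6 and 222 CPM per kb, and Myl4, Myl7 and Sln at 0.105 or below.

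Across mice, no relation of Nppa with Nppb or with an atrial gene passed a test. Pearson's r of log2 CPM between Nppa and Nppb over the 6 mice was 0.22 (exact permutation p = 0.693) and Spearman's rho was 0.26 (exact permutation p = 0.658). Without WT1 and WT3, the mice farthest from the median of Nppb, r was -0.73, and r of the deviations from the genotype means was 0.34. The value depended on single mice. Without Mut2, which had the highest Nppa and, after WT1, the lowest Nppb level, r was 0.83 over 5 mice (exact permutation p = 0.0833). Without WT1 r was -0.26 and without WT3 it was 0.040 (exact permutation p = 0.708 and 0.95). Per kb, Nppb was 2.14, 2.37 and 2.98 times as high as Nppa in WT1, WT2 and WT3, 2.75 times in Mut1 and 1.75 times in Mut3, but 0.827 times in Mut2.

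The log2 ratio of Nppa to Nppb, which needs no scaling between libraries, was 0.64 higher in Mut than in WT mice, with an SD of 0.25 among WT and 0.87 among Mut mice (n = 3 each, exact permutation p = 0.3). Mut1 lay between WT2 and WT3, so the genotypes overlapped. Without Mut2 the difference was 0.17, and without Mut1 1.04. The smallest exact p this design allows is 0.1.

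For the atrial genes, r between Nppa and Myl4 was 0.39 (exact permutation p = 0.479, rho 0.71 with exact permutation p = 0.136), 0.63 without WT2 and WT3, and 0.33 for the deviations within genotypes. Myl4 had only 23 to 54 counts per mouse, so counting error makes up part or all of its spread between mice. Its r with Nppa therefore cannot show whether Nppa followed it or not. Among the 7 relations of Nppa with the other members, r ranged from 0.052 for Corin to 0.39 for Myl4, and the Benjamini-Hochberg adjusted exact permutation p was 0.914 for each. For Myl7 and Sln the relation rests on the few mice with counts and leaves nothing to correlate without them. The mean of the centred log2 CPM of Myl4, Myl7 and Sln gave r = 0.21 with Nppa, and -0.20 for the deviations within genotypes. This score rests mostly on the Myl7 counts of 2 mice, Mut1 and Mut3. The same score over the 12 tested genes of the further atrial list gave r = 0.50 and rho = 0.49, 0.49 for the deviations within genotypes, and -0.20 without Mut1 and Mut2, the mice farthest from its median. Mut2, the mouse with the highest Nppa level at 106.5 CPM, had 0 counts of Myl7 and of Sln. WT3 and Mut3 had nearly the same Nppa level, 76.0 and 76.3 CPM, with 0 and 19 Myl7 counts.

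**Figure D4:**
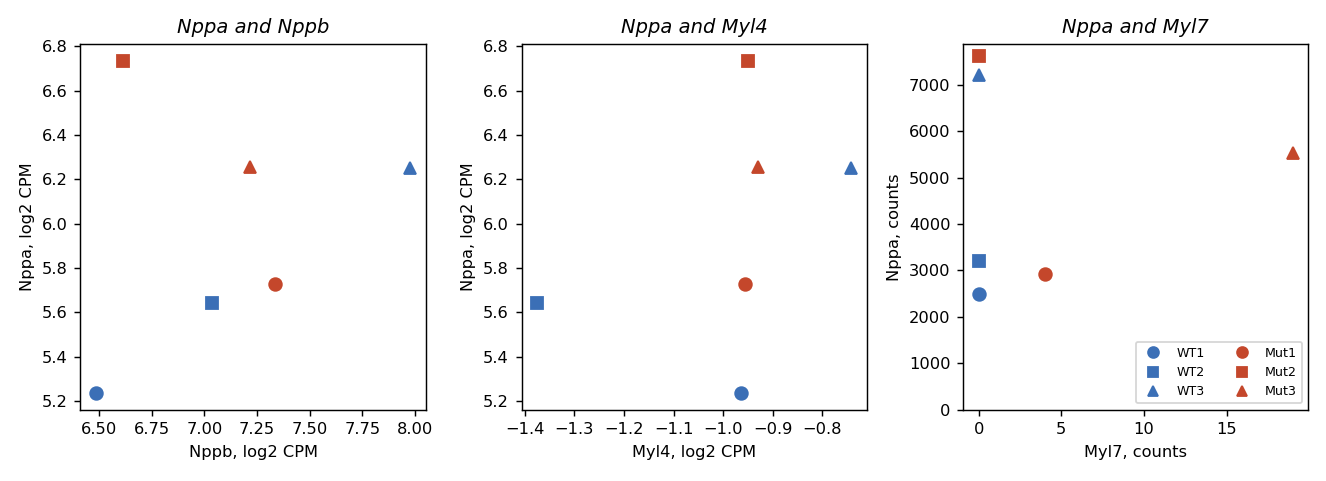
Nppa in every mouse against Nppb and against Myl4 (log2 CPM, left and middle) and against Myl7 (raw counts, right). Mut2 combines the highest Nppa with a low Nppb level and 0 Myl7 counts, and the right panel is not scaled for library size.

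Among the genes most like Nppa over the 6 mice, by Pearson's r of log2 CPM among 13214 tested genes with a mean of at least 1 CPM, were Top2a, a topoisomerase of dividing cells (0.98), Spg21 (0.98), Phlda3, a target of p53 (0.98), and Tmem35a (0.97). Like Nppa, Top2a was lowest in WT1, at 3.71 CPM, and highest in Mut2, at 9.76 CPM. Those most like Nppb were Mrpl19, a protein of the mitochondrial ribosome (0.99), Stx8, a membrane fusion protein (0.99), Rcan1, the calcineurin regulator (0.98), Cmtm8 (0.97) and the noncoding C030034I22Rik (0.97). Rcan1 had 81.1, 95.6 and 129.7 CPM in WT1, WT2 and WT3 and 101.6, 79.4 and 106.9 CPM in Mut1, Mut2 and Mut3. An r of at least 0.8 was reached by 246 genes (1.86%) with Nppa and by 356 (2.69%) with Nppb. With 6 mice, unrelated genes also reach such values, and the genes named were picked as the highest among 13214. Whether any of them is related to Nppa or Nppb was not tested. In the order of likeness to Nppa, Nppb stood at 3944 of 13214. For Nppb itself, Npr3 was the nearest member (r = 0.64, exact permutation p = 0.163, rho 0.83 with exact permutation p = 0.0583).

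Gm13054, a noncoding gene on the opposite strand that shares 615 exonic bases with Nppa, had 0, 15 and 11 counts in WT1, WT2 and WT3 and 31, 37 and 33 counts in Mut1, Mut2 and Mut3. All mutants were above all wild types, as were 8.30% of the genes tested, and the log2 fold change was 2.12 (SE 0.89, edgeR adjusted p = 0.551). It was singled out after its values were seen. Its counts were 0% to 1.06% of those of Nppa, and without strand reads of the shared bases cannot be assigned to either gene.

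Of the 17 other genes of the natriuretic peptide and cyclic GMP pathway 16 were tested, 6 with a positive and 10 with a negative log2 fold change, and 0 were called by edgeR (2 at an unadjusted p under 0.05, where 8.63% of all tested genes were) and 1, Dpp4, by DESeq2 (which called 1.06% of all genes). The median was -0.064, against 0.012 over all tested genes. By the difference in mean log2 CPM the split was 6 to 10 with TMM, 7 to 9 with upper-quartile scaling and 3 to 13 by library size alone. Dpp4, a protease that trims B-type natriuretic peptide, was at 2.80, 2.22 and 2.21 CPM in WT1, WT2 and WT3 and at 5.50, 3.99 and 6.15 CPM in Mut1, Mut2 and Mut3, higher without overlap as in 8.30% of the genes tested (log2 fold change 1.11, edgeR adjusted p = 0.215, DESeq2 adjusted p = 0.0118). Pde3a, a phosphodiesterase inhibited by cyclic GMP, was lower in each mutant than in each wild type, as were 7.23% of the genes tested (107.8 to 117.1 CPM in WT, 79.3 to 88.8 in Mut mice, log2 fold change -0.40, edgeR adjusted p = 0.478). Nppc, the gene of C-type natriuretic peptide, was at 0 in 5 of 6 mice and was not tested.

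Of 15 further genes known for higher expression in the atrium, 12 were tested, 5 with a positive and 7 with a negative log2 fold change, and 0 were called by edgeR (3 at an unadjusted p under 0.05, against 8.63% of all tested genes) or DESeq2. The median was -0.11. Kcnj3, a subunit of the acetylcholine-gated potassium channel, was at 67.1 to 78.7 CPM in WT and 48.7 to 57.8 in Mut mice (log2 fold change -0.49, edgeR adjusted p = 0.377). Dkk3 was at 1.04 to 1.58 CPM in WT and 1.68 to 3.92 in Mut mice (1.03, edgeR adjusted p = 0.454). The pair went in opposite directions, and neither passed the edgeR threshold. Of the 5 ventricular chamber genes 5 were tested and 0 called by edgeR (0 at an unadjusted p under 0.05) or DESeq2, with a median of -0.0057. The first was Myl2, highest in Mut3 at 3622 CPM (log2 fold change 0.51, edgeR adjusted p = 0.666), and Myh7 was at 424.1 to 492.8 CPM in WT and 216.6 to 463.4 in Mut mice (-0.31, edgeR adjusted p = 0.759).

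Nppa is known to persist in the ventricular conduction system of the adult. Of 10 genes of that tissue 10 were tested, with 0 called by edgeR (1 at an unadjusted p under 0.05) and 1, Kcne1, by DESeq2 (which called 1.06% of all genes), 8 with a positive and 2 with a negative log2 fold change and a median of 0.18. Kcne1, a potassium channel subunit, was at 4.06, 4.35 and 4.57 CPM in WT1, WT2 and WT3 and at 6.34, 21.8 and 9.58 CPM in Mut1, Mut2 and Mut3 (log2 fold change 1.54, SE 0.37, edgeR adjusted p = 0.244, DESeq2 adjusted p = 0.00385). Like Nppa it was highest in Mut2. Sema3a came next (0.71, edgeR adjusted p = 0.663). By the difference in mean log2 CPM the list split 7 to 3 with TMM and 5 to 5 with libraries scaled by their size alone, a scaling that moved the median of all tested genes to -0.14.

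The hypertrophy and stress genes held 12 members, among them Myh6 and Atp2a2, which are known to fall in the hypertrophic heart, and Acta1 and Myh7, which are known to rise. All 12 were tested and 0 called by edgeR (1 at an unadjusted p under 0.05) or DESeq2. A total of 11 had a negative log2 fold change, with a median of -0.29, against 0.012 for all tested genes. Skeletal alpha-actin Acta1 was at 182.9, 315.1 and 316.9 CPM in WT1, WT2 and WT3 and at 181.3, 165.4 and 198.4 CPM in Mut1, Mut2 and Mut3, overlapping only through WT1 (log2 fold change -0.58, edgeR adjusted p = 0.483). The matricellular gene Ccn2 had a log2 fold change of -0.41 (edgeR adjusted p = 0.599). Atp2a2 was lower in each mutant than in each wild type, as were 7.23% of the genes tested (log2 fold change -0.46, edgeR adjusted p = 0.630). Myh6 was at -0.39 and Myh7 at -0.31 (edgeR adjusted p-values 0.789 and 0.759), so the negative values include genes known to fall and genes known to rise. The 6 cardiomyocyte markers, of which Myh6 is also in this list, had 5 of 6 negative values with 0 called by edgeR (0 at an unadjusted p under 0.05) or DESeq2, and their summed level was 31986 to 35418 CPM in WT and 20196 to 33336 in Mut mice. Ttn and Ryr2 had the smallest unadjusted p (-0.36 and -0.33, edgeR adjusted p-values 0.648 and 0.654). The part of the cardiomyocyte share in these values was not tested.

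Of 9 transcription factors known to act on the 2 peptide promoters 9 were tested and 0 called by edgeR (0 at an unadjusted p under 0.05) or DESeq2, 2 positive and 7 negative, with a median of -0.074. By the difference in mean log2 CPM the split was 2 to 7 with TMM, 4 to 5 with upper-quartile scaling and 1 to 8 by library size alone. Tbx20, a T-box factor, was lower in each mutant than in each wild type (108.6 to 130.2 CPM in WT, 82.4 to 108.2 in Mut mice, log2 fold change -0.36, edgeR adjusted p = 0.587), as were 7.23% of the genes tested. Hand2 was at -0.29 (edgeR adjusted p = 0.679). Of 8 neighbours of the locus 7 were tested and 0 called by edgeR (0 at an unadjusted p under 0.05) or DESeq2, 5 positive and 2 negative, with a median of 0.055. By the difference in mean log2 CPM the split was 5 to 2 with TMM and 2 to 5 by library size alone, which shifts all genes downwards. Agtrap had the smallest unadjusted p (31.1 to 32.4 CPM in WT, 35.3 to 40.0 in Mut mice, log2 fold change 0.26, edgeR adjusted p = 0.650), followed by Mad2l2 (0.27, edgeR adjusted p = 0.826).

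**Figure D5:**
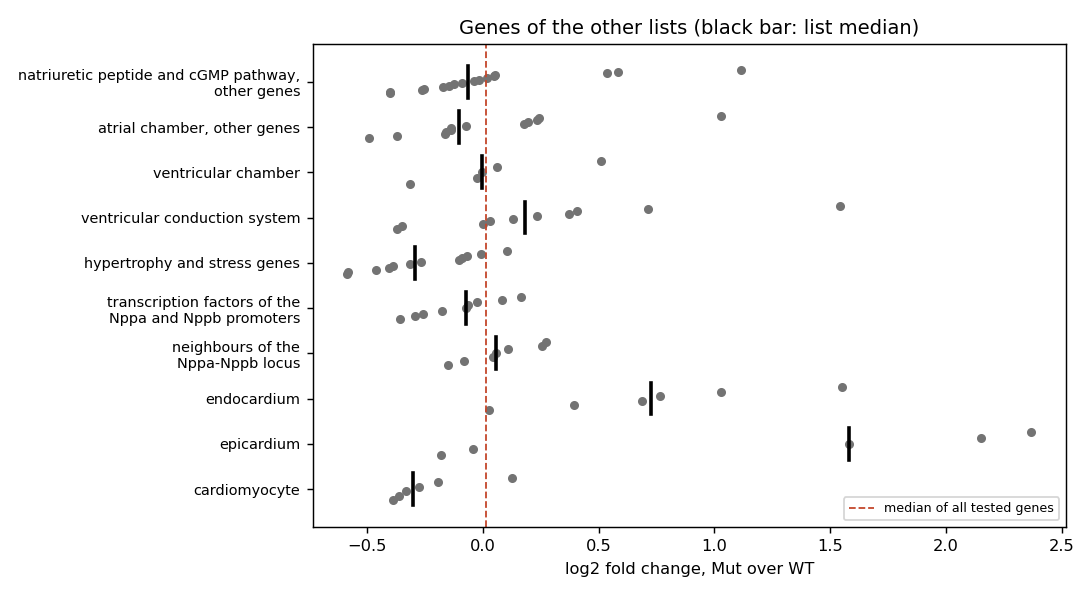
Log2 fold change, Mut over WT, of each tested gene (grey) in the other lists, with the list median (black) and the median of all tested genes (dashed). Medians of the 7 gene lists lie between -0.29 and 0.18 and those of the epicardial and endocardial markers at 1.58 and 0.73, and no gene shown passed the threshold of edgeR.

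Other cells of the tissue varied between mice as well. The 5 endothelial markers were tested with 0 called by edgeR (1 at an unadjusted p under 0.05) or DESeq2, summing to 438.9 to 643.4 CPM in WT and 407.0 to 652.3 in Mut mice, and Emcn and Kdr had the smallest unadjusted p (log2 fold changes 0.40 and -0.24, edgeR adjusted p-values 0.535 and 0.811). The 5 erythroid markers were tested with 0 called by edgeR (3 at an unadjusted p under 0.05, against 8.63% of all tested genes) and 1, Hba-a1, by DESeq2 (adjusted p = 0.0352, against 1.06% of genes called), and 5 of 5 were positive, summing to 578.8 to 1479 CPM in WT and 1042 to 2625 in Mut mice, led by Hba-a1 and Hba-a2 (1.02 and 0.90, edgeR adjusted p-values 0.372 and 0.455). Of the skeletal muscle markers 3 were tested and 0 called (0 at an unadjusted p under 0.05), led by Mylpf and Tnnt3 (1.35 and 1.97, edgeR adjusted p-values 0.664 and 0.691) with every library under 1 CPM for each. Their part in the levels of the natriuretic peptide genes was not tested.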

How the data were processed

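The authors trimmed reads with Trim Galore, aligned them to GRCm39 with HISAT2, excluded ribosomal RNA and ran StringTie and edgeR. Versions, the annotation release, the strand setting and how counts were drawn from StringTie are not given in the sources used here. The deposited count table (raw gene counts, 3 WT and 3 Mut mice) was used. The deposited comparison table holds the authors' fold changes and p-values for 12629 genes and served for gene names only. It named 5 members. Myl4, Myl7 and Sln were named by gene ID from GENCODE M39.

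Counts were tested with edgeR 4.0.16 (R 4.3.3): filterByExpr, TMM, robust quasi-likelihood test, Benjamini-Hochberg over the 17212 tested genes, threshold 0.05, two-sided, no covariate. log2 CPM used a prior count of 2. In data simulated for this comparison (16772 genes), 122 of 200 genes changed by 1 log2 unit were called, with 10 unchanged ones. Exact permutation tests between genotypes used SciPy 1.17.1, and those of correlations were computed over all pairings of the mice with NumPy 2.4.6. Members and lists were chosen with earlier results of these data known. By rule, all members, the 2 genes of smallest unadjusted p in each list and the 5 most like Nppa and Nppb are named. A gene among the most like and a gene too low to test are not reported here. No 2 libraries agreed within sampling noise. Alternatives were DESeq2 1.42.0 (Wald test or size factors), other scalings, filters, a replicate block and each mouse left out.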

Additional observations from a re-analysis of the deposited data

How the results depend on the processing

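The count of called genes was 7, 7, 7 and 5 with DESeq2 size factors, upper-quartile scaling, mitochondrially encoded genes removed, or at least 10 counts in every mouse. It was 21 with library size only, 158 with the DESeq2 Wald test, 20 with no filter, 2 to 4 with each mouse left out, and 1 without WT3 and Mut1 together (chosen after seeing the data). None of the 6 tested members passed the threshold in any of these fits. With the replicate number as a block 1 gene was called and the log2 fold changes were 0.53 for Nppa and -0.12 for Nppb. The block moved the unadjusted edgeR p of Nppa from 0.0900 to 0.0423 (adjusted 0.693 with the block) and that of Nppb from 0.546 to 0.696. Over all tested genes, same-numbered deviations correlated at -0.0013, 0.022 and -0.057. This shows no pairing across the genes as a whole, but it cannot exclude 1 that acts on some genes.

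Nppa stayed positive in 15 of 15 alternatives (0.24 to 1.06, edgeR or DESeq2 adjusted p 0.295 to 0.976), with 0.24 to 0.84 over the mice left out. It was 1.06 without WT3 and Mut1. Nppb ranged from -0.49 to 0.30 over the mice left out, reversing without WT3 (0.30), and was 0.16 without WT3 and Mut1. Over the mice left out, Npr1 ranged from -0.086 (without Mut3) to 0.22, Npr3 from -0.030 (without Mut3) to 0.87 (without WT3 and Mut1), Corin from -0.49 (without Mut2) to -0.11 (without Mut1) and Myl4 from -0.11 (without WT2) to 0.23 (without WT3 and Mut1). Scaling by library size only moved the median of all genes to -0.14, gave -0.50 for Nppb (-0.36 relative to that median) and reversed Npr1 (-0.021) and Myl4 (-0.14), both near or above that median. The correlation of Nppa with Nppb ran from -0.26 (without WT1) to 0.83 over the mice left out, and was 0.57 by library size only. That with the atrial score ran from -0.075 (without Mut3) to 0.56, was -0.20 for the deviations from the genotype means, 0.54 by Spearman's rho and 0.50 for a score of other atrial genes. The ratio of Nppa to Nppb ranged from 0.17 to 1.04. The cause was not tested. Myl7 and Sln are limited by depth.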
